A study of Mus musculus with 10 samples.

Results

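Krt8, Krt18, Krt7 and Krt19 encode the keratins of simple epithelia, and Sprr1a encodes a small proline-rich protein. These 5 genes, of 36047 genes with a listed transcript, were followed across RNA-seq libraries of mouse hepatic stellate cells. They were picked by name, with earlier results of the same Areg and control libraries in view. Their differences between the groups are therefore given as a description, without a test.

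The cells came from livers of C57BL/6 male mice. Quiescent stellate cells, the vitamin A-storing pericytes of the liver, were isolated and kept in culture for 5 h. They then spent 4 h in starving medium, with recombinant mouse Areg at 500 ng/mL in 5 libraries and as control in the other 5. Areg, or amphiregulin, activates the epidermal growth factor receptor, and the comparison asks which transcripts differ after a short exposure to it. The isolation, the time in culture and the starving medium were shared by both groups. Whether the libraries of a group came from separate mice or cultures is not in the labels, so the p-values cover only the spread among these libraries, and that spread may be technical.

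Keratins assemble as pairs of a type II and a type I chain, and Krt8 (type II) pairs with Krt18 (type I) in simple epithelia. In the adult liver, hepatocytes make this pair, while bile duct cells add Krt7 (type II) and Krt19 (type I). Stellate cells are known instead for vimentin and desmin filaments. Sprr1a is a precursor of the cornified envelope, the cross-linked protein shell of squamous epithelial cells, and is also known as a gene that injured neurons switch on.

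The labelled cell type was read from marker genes, in CPM (counts scaled to a common library size, here with edgeR's TMM factors). All 14 stellate markers had a mean of at least 1 CPM, and their sum was 12069 to 12762 CPM in controls and 11464 to 11913 CPM with Areg. In edgeR's test 5 of the 14 were lower with Areg (Lrat, Cygb, Ngfr, Ecm1 and Lhx2) and 0 higher, beside 8.32% and 8.34% of all genes tested. Lhx2 was no longer called without Areg 2 (-0.27) or without controls 3 and 4 (-0.22). Lrat, whose enzyme turns retinol into its stored ester, went from 44.9 ± 4.56 to 32.4 ± 1.17 CPM (SD, n = 5 and 5), with an edgeR adjusted p of 0.000293. The libraries also held transcripts of other liver cells, and not only at trace levels. All 20 hepatocyte, all 12 sinusoidal endothelial and all 12 macrophage markers had a mean of at least 1 CPM. The endothelial markers summed to 6702 to 7252 CPM in controls and 6696 to 6738 CPM with Areg, with Cdh5 highest at a mean of 2667 CPM. Hepatocyte markers summed to 2390 to 3611 and 2565 to 3187 CPM, and macrophage markers to 665 to 740 and 658 to 712 CPM. The part of these cells in the values of the 5 genes was not tested. Of 16 bile duct markers 4 did, and their summed level of 27.0 to 38.5 CPM over all libraries came mostly from Bicc1. In bulk RNA, fewer cells of a type and less RNA per cell cannot be told apart. Total estimated counts were 10125184 to 20057962 per library, lowest in controls 3 and 4. These 2 libraries stood apart on the first principal component of log2 CPM, at 34.7 and 22.7 against -13.1 to 0.881 for the others.

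Krt8, Krt18 and Sprr1a were higher in every Areg library than in any control library, while Krt7 and Krt19 were near the limit of detection in both groups. All 5 genes passed the filter on low counts. By edgeR's test 3 of the 5 were called higher, where 8.34% of the 13362 genes tested were called higher and 16.7% were called in either direction. None of the 5 was called lower, where 8.32% of all genes were. The same 3 genes had groups that did not overlap, which held for 7.64% of tested genes in that direction. Since the genes were picked from this contrast, nothing is read from these counts.

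Krt8, the type II chain, is at chr15:101996698-102004482 (GRCm38, minus strand) and is listed with 1 transcript of 1958 bases. Its level was 69.0, 81.7, 92.5, 94.3 and 89.9 CPM in controls 1 through 5, and 134, 125, 126, 113 and 99.0 CPM in Areg libraries 1 through 5. The lowest Areg library, number 5, lay close above the highest control, number 4. The means were 85.5 ± 10.4 and 119 ± 13.5 CPM (SD, n = 5 and 5), a log2 fold change of 0.49 with a standard error (SE) of 0.09, or 1.40-fold.

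Krt18, the type I partner, is at chr15:102028180-102032027 on the plus strand and is listed with 1 transcript of 1437 bases. Its level was 43.0, 53.8, 54.7, 54.2 and 53.3 CPM in controls 1 through 5, and 98.2, 83.8, 81.6, 74.8 and 66.4 CPM in Areg libraries 1 through 5. Control 1 was the low library, Areg 1 was the highest and Areg 5 the lowest of its group, as for Krt8, and the groups did not overlap. The means were 51.8 ± 4.97 and 81.0 ± 11.8 CPM (SD, n = 5 and 5), a log2 fold change of 0.65 (SE 0.09), or 1.57-fold.

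Per transcript length, in TPM (transcript abundance scaled by length to a common total), the pair was at similar levels. Krt8 was at 77.7 ± 6.58 TPM in controls and 107 ± 12.7 TPM with Areg, and Krt18 at 66.6 ± 4.28 and 102 ± 15.5 TPM (SD, n = 5 and 5). The ratio of Krt8 to Krt18 TPM was 1.17 ± 0.0619 in controls and 1.05 ± 0.0499 with Areg. The ratios overlapped between the groups, from 1.07 to 1.23 and from 0.963 to 1.09. On the same scale Vim, the vimentin gene, stood at 722 and 670 TPM, Nes, the nestin gene, at 161 and 199 TPM, and Des, the desmin gene, at 25.9 and 23.4 TPM. The Krt8 and Krt18 transcripts were thus above desmin and below vimentin per length in both groups.

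Krt7, the ductal type II keratin, is at chr15:101411043-101430313 on the plus strand. Its level was 0.677, 1.67, 1.10, 0.465 and 0.552 CPM in controls 1 through 5, and 0.558, 0.820, 1.16, 0.855 and 0.438 CPM in Areg libraries 1 through 5. Both groups covered the same range apart from control 2, and a library held 5 to 25 estimated counts. The log2 fold change was -0.22 (SE 0.37), and it was 0.16 without control 2, so no direction can be read.

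Krt19, the ductal type I keratin, is at chr11:100140810-100148665 on the minus strand. Its level was 0.789, 2.07, 0.602, 1.02 and 0.483 CPM in controls 1 through 5, and 0.670, 0.615, 0.454, 0.285 and 0.876 CPM in Areg libraries 1 through 5. The groups overlapped, control 2 was again the high library, and a library held 4 to 31 estimated counts. The log2 fold change was -0.77 (SE 0.39), and -0.28 without control 2. Krt7 and Krt19 together made up 1.29% of the summed TPM of the 4 keratins in controls and 0.662% with Areg. A change in either ductal keratin was not detectable at this depth.

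Sprr1a is at chr3:92483952-92485895 on the minus strand and is listed with 1 transcript of 806 bases. Its level was 2.26, 1.94, 3.61, 4.46 and 4.21 CPM in controls 1 through 5, and 9.94, 8.20, 7.01, 8.40 and 6.24 CPM in Areg libraries 1 through 5. Controls 1 and 2 were lowest, and the gap between the highest control and the lowest Areg library was wider relative to the level than for either keratin. These levels rest on 29 to 61 estimated counts per control library and 114 to 178 per Areg library. The means were 3.30 ± 1.14 and 7.96 ± 1.42 CPM (SD, n = 5 and 5), a log2 fold change of 1.30 (SE 0.20), or 2.46-fold. Among all tested genes Sprr1a had the 16th highest log2 fold change, Krt18 the 148th and Krt8 the 284th. Without controls 3 and 4, the log2 fold changes were 1.52 for Sprr1a, 0.70 for Krt18 and 0.58 for Krt8.

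**Figure D1:**
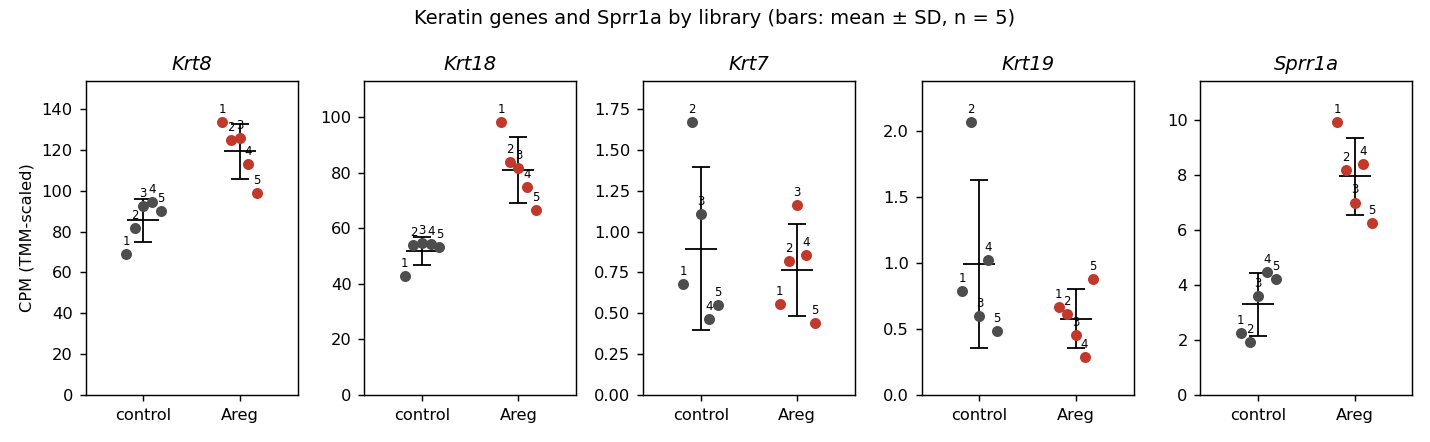
Level of each of the 5 genes in TMM-scaled CPM (vertical axes, 1 panel per gene) in the 5 control and 5 Areg libraries, with points for libraries and the mean and SD of each group. Krt8, Krt18 and Sprr1a do not overlap between the groups, while Krt7 and Krt19 overlap, with control 2 as the highest library of each.

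Reads of keratin genes can be shared with their processed pseudogenes, copies of spliced messages elsewhere in the genome. Of the 1928 distinct 31-base words of the Krt8 transcript, 32.3% also occur in other listed genes, 621 of them in Krt8-ps at chr7:23357125-23358069. Krt8-ps was given 0 estimated counts in 9 libraries and 1.43 in Areg 4. For Krt18 the shared part was 11.4% of 1407 words, and its pseudogenes Gm5200 (131 words) and Gm17847 (24 words) were at 0 in all 10 libraries. Adding the pseudogenes' counts to their parent genes left the log2 fold changes at 0.49 and 0.65. Sprr1a shared 0 of 759 words with another gene. Krt19 shared 8 of 1546, all with other keratins, and Krt7 shared 2.93% of 4262. The word length of the authors' index is not given in the sources used here.

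The other keratin genes stayed low. Of 49 further keratin genes 18 had no counts in any library, and 2 passed the filter. Krt10, a type I keratin of differentiating epidermis, was at 1.04 ± 0.526 CPM in controls and 1.70 ± 0.431 CPM with Areg, with a log2 fold change of 0.72 (edgeR adjusted p 0.120, SE 0.31, unadjusted p 0.0325). Krt23, a type I keratin, was at 1.09 CPM in both groups, with a log2 fold change of 0.01 (edgeR adjusted p 0.991, SE 0.33).

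Krt8 and Krt18 lie head to head, 23.698 kb apart, with no annotated gene with a listed transcript between them. Krt7 lies 566.385 kb from Krt8 in the same type II keratin cluster of chromosome 15. Beyond Krt18, Eif4b (41.746 kb away), a translation initiation factor gene, had a log2 fold change of 0.06 (edgeR adjusted p 0.365, SE 0.04). Tns2 (68.386 kb away), which encodes a focal adhesion protein, fell from 104 ± 9.94 to 72.5 ± 3.54 CPM, with a log2 fold change of -0.52 (edgeR adjusted p 7.27e-05, SE 0.06). Of these neighbours 0 were called higher by edgeR.

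Sprr1a lies in the epidermal differentiation complex of chromosome 3, and its neighbour Ivl was also higher in every Areg library. Ivl encodes involucrin, a scaffold protein of the cornified envelope, and starts 85.007 kb from Sprr1a, at chr3:92570902-92573735. By library, it had 3, 1, 0, 2 and 2 estimated counts in controls 1 through 5, and 23, 15, 17, 15 and 18 in Areg libraries 1 through 5. Ivl passed the filter on low counts through the Areg libraries alone and so had to differ, and its test is not used. Over the summed 8 and 88 counts, each divided by the summed gene counts of its group without TMM factors, the ratio of Areg to control was 8.24. The same selection applies to this ratio, so it is given as a description. No interval is given with it, since one from summed counts would cover counting error only and not the spread among libraries.

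Tgm1 rose. It encodes transglutaminase 1, the enzyme that cross-links involucrin and small proline-rich proteins. Its level was 3.04, 2.81, 2.31, 4.18 and 3.03 CPM in controls 1 through 5, and 5.47, 5.94, 5.75, 6.20 and 4.33 CPM in Areg libraries 1 through 5. The groups did not overlap, although control 4 was close below Areg 5. The log2 fold change was 0.85 (edgeR adjusted p 0.00163, SE 0.15). Without controls 3 and 4 it was 0.90, and still called.

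Most of the cornified envelope genes were not measurable. Of 55 listed genes 30 had no counts in any library and 4 passed the filter, Ivl through the Areg libraries alone, so no share of calls or median is given for the list. Sprr2b, another small proline-rich gene, was at 1.30 ± 0.848 and 1.29 ± 0.414 CPM, with a log2 fold change of 0.10 (edgeR adjusted p 0.897, SE 0.38). Its highest library was control 3, at 2.61 CPM. Without controls 3 and 4 the Sprr2b log2 fold change was 0.79 (edgeR adjusted p 0.142, SE 0.35), still not called, so the equal means rest on those libraries. Tchh, the trichohyalin gene, had a log2 fold change of 0.25 (edgeR adjusted p 0.675, SE 0.35). Among 17 Sprr genes Sprr1a held 77.8% of the counts. Its near relative Sprr1b had 2 counts in all libraries together, and 6 of the 17 had 0, which allows up to 0.0190 CPM over all libraries.

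**Figure D2:**
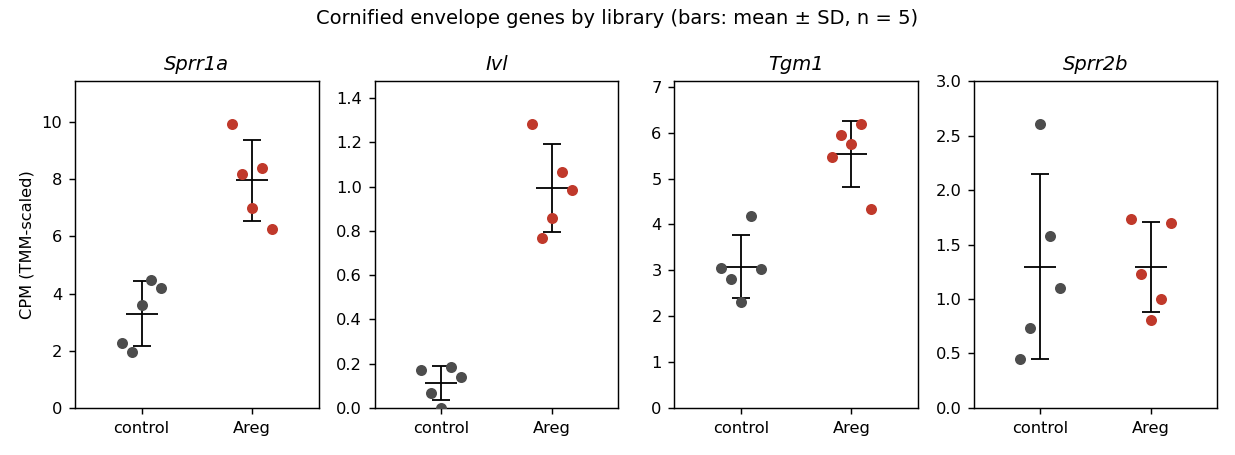
Level in TMM-scaled CPM of Sprr1a, Ivl, Tgm1 and Sprr2b in each control and Areg library, with points for libraries and the mean and SD of each group. Sprr1a, Ivl and Tgm1 do not overlap between the groups, while Sprr2b has means of 1.30 and 1.29 CPM and overlaps.

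The promoter of Sprr1a is shown because, of the 4 genes with a RefSeq promoter, it is the one whose window before the RefSeq gene start holds matches to TGANTCA, letters that factors of the AP-1 family are known to bind. The sequence is from RefSeq (GRCm38.p6), chr3:92485932-92486131 on the minus strand, 200 bases that end 51 bases before the RefSeq gene start at 92485881. That start lies 14 bases inside the gene as placed above, which follows GENCODE. Capitals mark the matches, both TGAGTCA, which begin 146 and 116 bases before the RefSeq start:
Sprr1a: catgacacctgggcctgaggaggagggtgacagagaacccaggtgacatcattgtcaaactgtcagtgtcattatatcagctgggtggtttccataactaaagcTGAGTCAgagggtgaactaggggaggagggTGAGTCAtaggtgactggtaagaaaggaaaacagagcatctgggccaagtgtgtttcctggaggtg
The motif reads the same on both strands, since TGANTCA is its own reverse complement. Of 32851 RefSeq promoters, 6.75% hold at least 1 match in the 250 bases before the RefSeq start and 0.338% hold at least 2. The RefSeq windows of Krt8, Krt18 and Krt7 hold 0 matches, which says only that these letters are not in those 250 bases. Their RefSeq starts lie 140, 36 and 1360 bases inside the GENCODE genes, so the windows of Krt8 and Krt18 are partly, and that of Krt7 wholly, within the gene as placed above. These matches describe the sequence, and no binding was measured.

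Genes of other intermediate filaments moved in both directions. Of the 8 genes tested, 2 passed as higher and 1 as lower, with a median log2 fold change of 0.13 beside -0.01 over all genes, of which 8.34% were higher and 8.32% lower. Nes rose from 582 ± 62.5 to 731 ± 24.2 CPM, with a log2 fold change of 0.33 (edgeR adjusted p 0.00236, SE 0.06). Lmnb1, the lamin B1 gene, had a log2 fold change of 0.46 (edgeR adjusted p 0.0222, SE 0.13). That call was lost without control 3 (0.42, adjusted p 0.0579) or without Areg 5 (0.44, adjusted p 0.0563), and without controls 3 and 4 (0.30). Synm, the synemin gene, fell by 0.27 on the log2 scale (edgeR adjusted p 0.00974, SE 0.07). In limma-trend on log2(TPM + 1), 0 of the 8 were called, with adjusted p of 0.0528 for Nes, 0.236 for Synm and 0.0844 for Lmnb1. In edgeR Vim and Des did not pass, with log2 fold changes of 0.10 (edgeR adjusted p 0.151, SE 0.05) and -0.11 (edgeR adjusted p 0.199, SE 0.06). Without controls 3 and 4 Vim was called at 0.14 (edgeR adjusted p 0.0182), and with coding transcripts alone at 0.21 (edgeR adjusted p 0.0120). Over the alternatives Vim ran from -0.10 to 0.21, and its mean TPM was lower with Areg (722 and 670 TPM). The direction for Vim thus depended on the measure.

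Genes for proteins that anchor keratin filaments were listed together with others, among them the 14-3-3 genes Sfn and Ywhaz. Genes of this list were called about as often as genes in general. Of its 17 tested genes 1 passed as higher and 2 as lower, beside 8.34% and 8.32% of all genes, and their median log2 fold change was -0.12. Jup was the called gene outside the 14-3-3 family. Jup, the plakoglobin gene of desmosomes and adherens junctions, fell from 34.6 ± 5.27 to 24.3 ± 1.54 CPM, with a log2 fold change of -0.50 (edgeR adjusted p 0.00154, SE 0.09). Sfn, which encodes 14-3-3 sigma, had a log2 fold change of -0.44 (edgeR adjusted p 0.0295, SE 0.13). Leaving out control 1 (-0.35), Areg 2 (-0.44), Areg 4 (-0.35) or Areg 5 (-0.42) ended that call. Ywhaz, another 14-3-3 gene, had a log2 fold change of 0.14 (edgeR adjusted p 0.0420, SE 0.05), and its call was lost without control 3, control 4 or any 1 of the Areg libraries (0.12 to 0.15).

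Of 12 tested epithelial transcription factors and splicing regulators, 0 were called higher by edgeR and 2 lower, beside 8.34% and 8.32% of all genes, and their median log2 fold change was -0.13. Counts this small do not set the list apart from other genes. Hnf4a, a nuclear receptor of hepatocytes, fell from 24.8 ± 1.75 to 17.0 ± 1.96 CPM, with a log2 fold change of -0.54 (edgeR adjusted p 0.000695, SE 0.09). Klf4, a factor of squamous differentiation, fell from 101 ± 4.70 to 87.3 ± 2.83 CPM, with a log2 fold change of -0.21 (edgeR adjusted p 0.00757, SE 0.05).

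Genes reported with Sprr1a in injured nerve included several that rose, but most of those tested were not called. Of the 19 genes tested, 6 passed as higher and 2 as lower, beside 8.34% and 8.32% of all genes, with a median log2 fold change of 0.20. Without controls 3 and 4, 10 passed as higher and 1 as lower, beside 1147 and 1031 of all 13693 genes. Il6, an inflammatory cytokine gene, rose from 46.6 ± 5.26 to 92.0 ± 7.23 CPM, with a log2 fold change of 0.98 (edgeR adjusted p 5.85e-07, SE 0.08). Lif, a cytokine of the same family, rose from 431 ± 32.3 to 712 ± 26.9 CPM, with a log2 fold change of 0.73 (edgeR adjusted p 3.98e-07, SE 0.05). Socs3, a feedback inhibitor of cytokine signalling, rose by a log2 fold change of 0.52 (edgeR adjusted p 2.10e-05, SE 0.06). Ankrd1, a stress-responsive ankyrin repeat gene, rose by 0.83 (edgeR adjusted p 0.000123, SE 0.11). Cd44 and Flrt3 were the other genes called higher, the latter not without Areg 2 (0.49). Gadd45a and Hspb1 were called lower, and both calls were lost when 1 of several libraries was left out. The other 11 were not called, among them Atf3 (-0.09, edgeR adjusted p 0.286) and Sox11 (-0.06, edgeR adjusted p 0.900). Gap43 held 10 counts over all libraries, with means of 0.130 CPM in controls and 0.0142 CPM with Areg, and was not tested. Jun, a member of AP-1, was at 394 ± 17.1 and 361 ± 6.03 CPM, with a log2 fold change of -0.13 (edgeR adjusted p 0.0545, SE 0.04), and DESeq2 called it lower (adjusted p 0.0104).

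**Figure D3:**
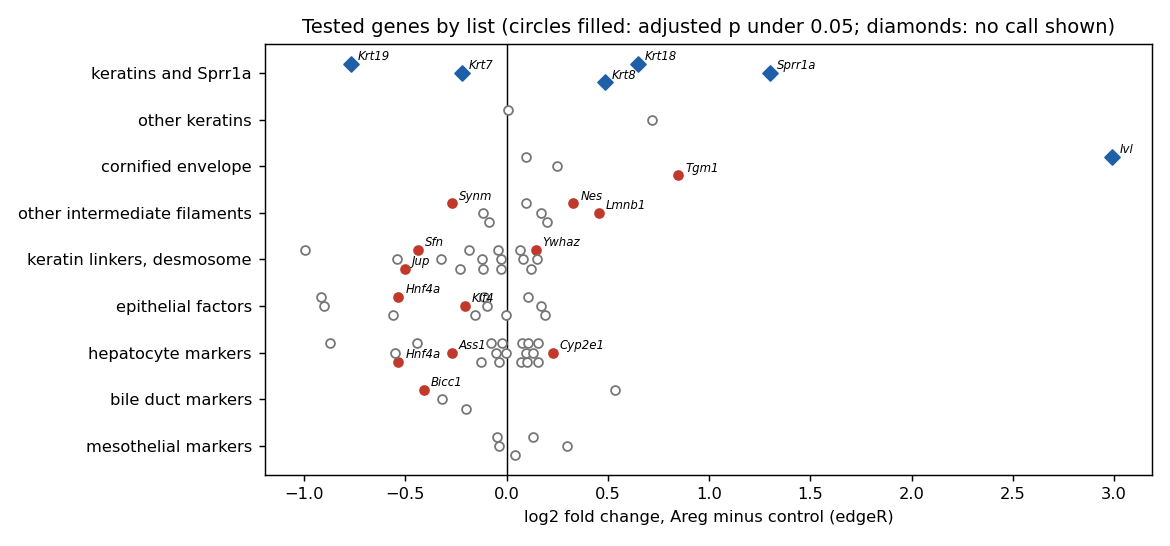
Log2 fold change (Areg minus control, horizontal axis) of each tested gene of the filament, cornified envelope, linker, epithelial factor and marker lists (rows), with filled circles for genes called by edgeR and diamonds, which show no call, for the keratins, Sprr1a and Ivl. Called genes lie on both sides of 0 among other intermediate filaments, linkers and hepatocyte markers, and the linker and epithelial factor medians are -0.12 and -0.13.

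Across the 10 libraries Krt8 and Krt18 followed each other closely. Pearson's r of log2(CPM + 0.5) was 0.973, and 0.916 for deviations from the group means. Sprr1a had an r of 0.929 with Krt8 (0.744 for deviations) and of 0.904 with Krt18 (0.566 for deviations), and Krt7 with Krt19 one of 0.285. These are descriptions over 10 libraries in 2 groups, whose values share library and depth.

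The genes most like each of the 5, out of 12642 with a mean of at least 1 CPM, were ranked by the same r over 10 libraries. For Krt8 they were Mup22 (0.969), Mup16 (0.968) and Uox (0.963). The Mup genes encode the major urinary proteins secreted by hepatocytes, and Uox encodes urate oxidase, a liver peroxisomal enzyme. For Krt18 they were Sdr42e1 (0.945), Mup20 (0.945) and Cyp3a13 (0.943), and for Sprr1a they were Uox (0.956), Prg4 (0.943) and Lmcd1 (0.942). Krt7 was closest to Zfyve21 (0.879) and Krt19 to Zfp692 (0.878), both at counts too low to read a pattern from.

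Transcripts known from hepatocytes therefore stand beside the keratin values. Summed over the Mup genes, a multigene family whose single values are uncertain, the level was 5611, 7037, 6603, 7690 and 7644 CPM in controls 1 through 5. It was 9484, 10084, 9322, 8637 and 7845 CPM in Areg libraries 1 through 5, so the groups did not overlap. Of 19 tested Mup genes 12 were called higher and 0 lower by edgeR, beside 8.34% and 8.32% of all genes, with a median log2 fold change of 0.41. This family was looked at after the likeness values with Krt8 and Krt18 were seen. Genes picked for likeness to genes whose groups do not overlap tend to differ too. Similar Mup transcripts may also share reads, so nothing is read from this count.

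The sum of the 20 hepatocyte markers was 2390, 2587, 3611, 3128 and 2886 CPM in controls 1 through 5, and 3186, 3187, 3089, 2841 and 2565 CPM in Areg libraries 1 through 5. These sums overlapped, with means of 2920 ± 478 and 2974 ± 269 CPM and control 3 as the highest library. Of the 20 markers 1 was called higher (Cyp2e1) and 2 lower (Hnf4a and Ass1), beside 8.34% and 8.32% of all genes. The median log2 fold change of the 20 was -0.01. The calls of Cyp2e1 and Ass1 were each lost when 1 of several libraries was left out. Controls 3 and 4 had the highest control sums, and the other controls were all below the control mean of 2920 CPM. The similar means of the groups thus depend on controls 3 and 4. Without them, the highest control sum was 2886 CPM, still within the Areg range. In that fit 5 markers were called, 3 higher and 2 lower, beside 1147 and 1031 of all 13693 genes. Alb, the albumin gene, was at 473 to 945 CPM in controls and 537 to 657 CPM with Areg, and its log2 fold change was -0.05 with all libraries and 0.25 without controls 3 and 4 (edgeR adjusted p 0.0679).

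Within the groups, libraries with more hepatocyte marker RNA had more Krt8. The r of deviations from group means with the hepatocyte marker sum was 0.876 for Krt8, 0.723 for Krt18 and 0.707 for Sprr1a, and with the Mup sum it was 0.858, 0.781 and 0.611. For Krt7 and Krt19 the corresponding r with hepatocyte markers was 0.0910 and -0.361. With the hepatocyte marker sum as a covariate in edgeR, the log2 fold changes between the groups were 0.45 for Krt8, 0.61 for Krt18 and 1.24 for Sprr1a. With the Mup sum as a covariate they were 0.12, 0.30 and 0.70. In that fit treatment and Mup level cannot be told apart, since the Mup sum did not overlap between the groups, and 61 genes were called in all. Both covariates were chosen after seeing the data, the Mup sum through its likeness to Krt8 and Krt18. Nothing is therefore read from the lower values with the Mup sum.

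**Figure D4:**
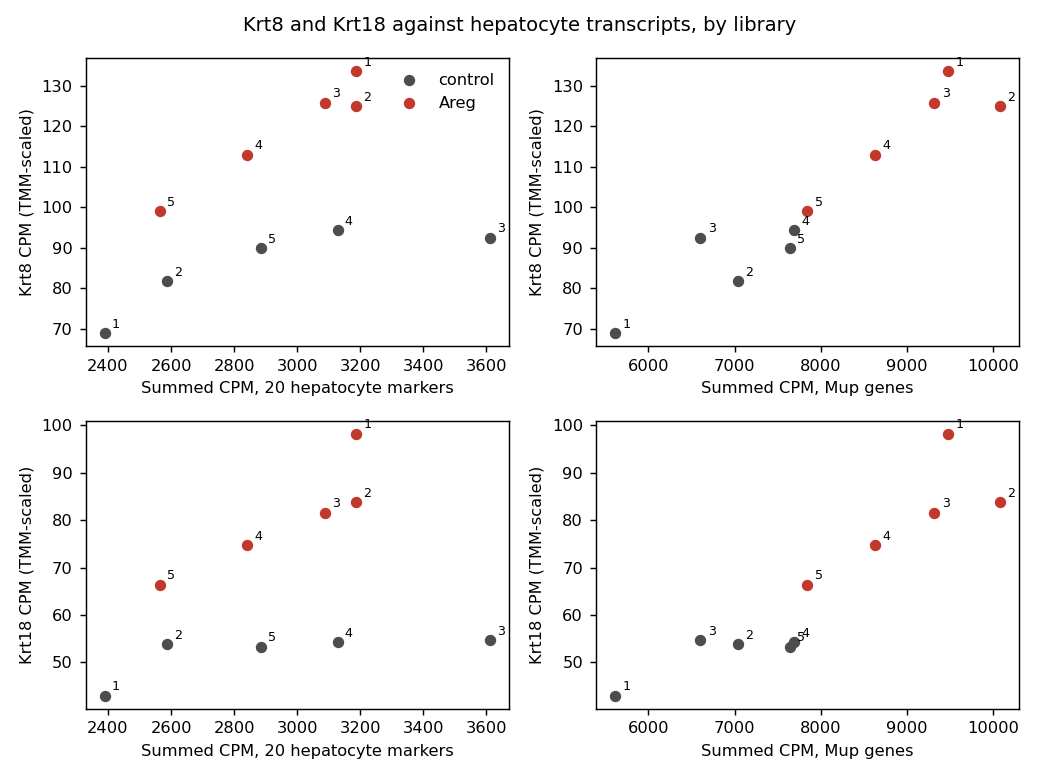
Krt8 and Krt18 in TMM-scaled CPM (vertical axes) against the summed CPM of 20 hepatocyte markers and of the Mup genes (horizontal axes), with each point a library numbered by replicate. The groups overlap on the hepatocyte marker axis (2390 to 3611 against 2565 to 3187 CPM) and do not overlap on the Mup axis (5611 to 7690 against 7845 to 10084 CPM).

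Markers of bile duct and mesothelial cells, which also make these keratins, were low. Bicc1, the most abundant gene of the bile duct list, fell from 28.1 ± 2.22 to 21.2 ± 2.22 CPM, with a log2 fold change of -0.41 (edgeR adjusted p 0.00243, SE 0.08). Epcam, a surface protein of bile duct cells, was at a mean of 0.510 CPM in controls and 0.176 CPM with Areg. Sox9, a factor of bile duct cells, was at 2.36 ± 0.774 and 3.35 ± 0.396 CPM, with a log2 fold change of 0.54 (edgeR adjusted p 0.0651, SE 0.19). Without control 3, its highest control library, Sox9 was called at 0.73 (adjusted p 0.00656). Mesothelial cells also make Krt8, Krt18 and Krt19. Their 15 markers summed to 46.9 to 58.3 CPM in controls and 50.5 to 62.0 CPM with Areg, mostly Slc9a3r1, and 0 of 5 tested were called by edgeR. Msln, the mesothelin gene, was at 0.796 and 0.949 CPM. The part of these other cells in the keratin values was not tested.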

How the data were processed

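Poly-A RNA of 10 libraries was sequenced after TruSeq library construction, per the labels' protocols. The deposited files hold estimated counts per transcript from kallisto, expected counts with fractions, and TPM per transcript, which the authors' kallisto run scaled to transcript length and a common total, per the file headers. GRCm38.p6, DESeq2, bcl2fastq 2.19 and kallisto 0.44.0 are listed in the submitters' processing notes. The transcript set, strand setting and index word length were not given in the sources used here. Transcripts shared between similar genes are split by estimation, so keratin values with pseudogenes are uncertain.

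Of 118489 transcripts 116816 were matched to GENCODE M21 (GRCm38), and the other 1673 held 0.736 to 0.778% of counts and were left out. Estimated counts and TPM were summed per gene, and counts were rounded. Groups came from the labels. The 5 Areg and 5 control libraries were compared with edgeR 4.0.16 (R 4.3.3, quasi-likelihood, robust, TMM factors, filterByExpr with a minimum count of 10 and total of 15), with Benjamini-Hochberg adjustment over 13362 genes at 0.05. Fold changes are log2 of Areg over control. On simulated data 96% of genes changed 2-fold were recovered among 13362 genes in 1 run.

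The genes and lists were chosen with earlier results of these data known. Named genes were the 5 chosen, other keratins above 1 CPM, pseudogenes, the nearest tested neighbours, up to 4 genes of smallest p per list, and the 3 genes most like each of the 5. The Mup family, Epcam, Msln, Alb, Vim, Des, Jun, Atf3, Sox11, Gap43 and Sprr1b were added after their values were seen. Libraries of a group differed beyond counting noise (lowest chi-square per degree of freedom 3.60, highest 46.5), so none was counted as deposited more than once. Alternatives were other normalization factors, filters, DESeq2 1.42.0, limma 3.58.1 (voom, and trend on log2 TPM), coding transcripts or genes alone, a length offset, a replicate block, leaving out each library, and covariates.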

Additional observations from a re-analysis of the deposited data

Results flagged for a closer look

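In 7 of 128 groups of 5 libraries examined, 1 library stood far from the other 4, and chance gives about 1 in 20. Krt18 was at 43.0 CPM in control 1, below the 53.3 to 54.7 CPM of the other controls. The ratio of Krt8 to Krt18 TPM was 0.963 in Areg 1 and 1.06 to 1.09 in the other Areg libraries. Hnf4a was at 13.6 CPM in Areg 5 against 17.0 to 18.3 CPM. Ass1 was at 116 CPM in control 3 against 82.4 to 91.9 CPM, and Sox9 at 3.72 CPM in the same library against 1.80 to 2.21 CPM. Eif4b was at 383 CPM in Areg 4 against 364 to 366 CPM. Cyp3a13 was at 4.83 CPM in control 5 against 3.95 to 4.18 CPM.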

How the results depend on the processing

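The log2 fold changes of Krt8, Krt18 and Sprr1a, described here without a test, ran over 26 alternatives from 0.12 to 0.58, 0.30 to 0.71 and 0.70 to 1.52. With the Mup level as a covariate they were lowest, at 0.12, 0.30 and 0.70, and Cyp2e1 was at -0.021. Leaving out 1 library gave 0.42 to 0.55 for Krt8, 0.57 to 0.71 for Krt18 and 1.16 to 1.43 for Sprr1a. Krt7 ran from -0.43 to 0.16 over 10 such fits and Krt19 from -0.95 to -0.28 over 8, since Krt19 did not pass the filter without control 1 or without Areg 5, nor with coding transcripts alone. Neither could be fitted under the filter at 1 CPM, and DESeq2 gave neither an adjusted p.

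The 2226 called genes became 840 and 845 in limma-trend fits with pseudocounts of 1 and 0.1 TPM. At the former 316 of 840 were higher, against 1114 of 2226. Covariates gave 3469 (hepatocyte markers) and 61 (Mup), and leaving out 1 library 1364 (without Areg 2) to 2314. The cause was not tested.

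The labels do not say whether equal replicate numbers pair the libraries, and the values do not settle it. For equal numbers, r of deviations was -0.06 to 0.22, and 2 of 5 controls were closest to their own number. With the replicate block 2357 genes were called, and Krt8, Krt18 and Sprr1a were at 0.48, 0.64 and 1.32. Krt7 and Krt19 rested on 4 to 31 estimated counts per library.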
